A study of Mus musculus with 6 samples.

Results

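The genes described here are 33 genes of the amino acid response: targets of the transcription factor ATF4, Atf4 itself and cytosolic tRNA synthetases. They were taken by gene symbol from a list of known genes of the response and were all found among the 24016 genes of the deposited expression table. They fall into 4 classes: 10 stress effectors and regulators, 6 enzymes of amino acid and one-carbon synthesis, 5 amino acid carriers and 12 tRNA synthetases. Of the 33 genes, 32 had at least 10 reads in at least 3 of the 6 libraries and were tested among 11991 genes in all. Vldlr, a lipoprotein receptor, had 0 to 8 reads per library and was not tested.

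Macrophages were grown from the marrow of 8-week-old female C57BL/6N mice with 20 ng/mL of the growth factor M-CSF, plated on day 7 and exposed to 1 compound for 1 h. Every culture then received 100 ng/mL lipopolysaccharide (LPS) for 6 h, so no value here is an unstimulated level. Replicates 1, 2 and 3 of the hydroxyestrogen group were given 2OHE2, 4OHE1 and 2OHE1, which stand for 2-hydroxyestradiol, 4-hydroxyestrone and 2-hydroxyestrone. Replicates 1, 2 and 3 of the controls were given EtOH (the ethanol vehicle), E2 (estradiol) and 16Epi (another estrogen, known here by its label). The dose unit is garbled in the labels, and a 1 mM stock diluted 1000-fold gives 1 µM. A treatment field in the labels assigns the groups the other way round, and the titles, the table headers and the vehicle in the protocol gave the assignment used. With 1 library per compound, the spread inside a group of 3 holds differences between compounds. Whether the cultures came from separate animals or separate marrow preparations is not in the labels. The p-values therefore cover only the scatter of these 6 libraries, part of which may be technical.

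ATF4 is translated when kinases that sense missing amino acids, unfolded protein, viral RNA or low heme phosphorylate the initiation factor eIF2. Paired with C/EBP or other bZIP proteins it binds composite C/EBP-ATF elements in the promoters of genes for amino acid uptake, amino acid synthesis and tRNA charging. The same program holds the feedback and death genes Trib3, Ddit3 and Chac1, and some targets, such as Slc7a11, are shared with NRF2, an oxidant-responsive factor that binds antioxidant response elements.

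Reads in genes numbered 16424057 to 17326353 in the hydroxyestrogen libraries and 14734225 to 16059673 in the controls. On the first principal component 4OHE1 lay far from the rest, at 50.5 against -19.4 to -1.51 for the other 5 libraries, and for several members the difference without it is given beside the main one. Scatter was wider with hydroxyestrogens: among the 32 tested members the median SD of log2 RPKM was 0.16 in the hydroxyestrogen group and 0.09 in the controls, and over all tested genes 0.21 and 0.15. Markers of macrophages summed to 7667 to 8841 RPKM over 10 genes in the hydroxyestrogen libraries and to 8525 to 8942 in the controls. The 6 neutrophil markers in the table summed to 0.697 to 3.52 RPKM with hydroxyestrogens and 2.64 to 4.61 in controls. The fibroblast or stroma markers summed to 10.7 to 16.7 RPKM with hydroxyestrogens and 13.1 to 15.5 in controls. For dendritic cell markers the sums were 1.95 to 2.63 and 2.31 to 2.96. The summed B cell, T or NK cell, mast cell and erythroid markers reached 0.573 RPKM at most. The read filter left 10 macrophage, 4 fibroblast or stroma, 2 neutrophil, 1 dendritic and 1 T or NK cell marker to test, and none passed. No B cell, mast cell or erythroid marker could be tested. In bulk RNA, fewer cells of a type and less RNA per cell cannot be told apart.

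Promoter sequence is shown first because the class is defined by a factor with a known element. RefSeq windows from 250 bases before to 50 after the transcription start (build GRCm38.p6) were matched for 26 of the 33 members, Mars under the symbol Mars1. There was no window for Eif4ebp1, Slc7a5, Slc1a5, Cars, Lars, Nars and Wars. The core of the C/EBP-ATF element, TGATGNAA on either strand, was in the windows of 10 of 26 members (38.5%), and in those of 4.51% of 27025 genes and of 2.87% of 9024 tested genes. By class it was in 5 of 8 tRNA synthetases, 4 of 9 stress genes, 1 of 6 enzymes and 0 of 3 carriers. The matches of 9 of these genes, those shown here to give the element in its setting, are printed with 11 bases on each side, 5′ to 3′ on the gene's strand, with the match in capitals (TTNCATCA is the same motif read on the other strand).
Chac1 (chr2:119351038-119351067, plus strand): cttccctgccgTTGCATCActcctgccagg
Trib3 (chr2:152344028-152344057, minus strand): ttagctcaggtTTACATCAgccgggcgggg
Nupr1 (chr7:126625562-126625591, minus strand): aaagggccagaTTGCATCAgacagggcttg
Vldlr (chr19:27216809-27216838, plus strand): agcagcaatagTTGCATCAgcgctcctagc
Asns (chr6:7693214-7693243, minus strand): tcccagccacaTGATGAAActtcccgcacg
Gars (chr6:55037960-55037989, plus strand): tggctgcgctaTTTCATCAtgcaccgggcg
Iars (chr13:49682126-49682155, plus strand): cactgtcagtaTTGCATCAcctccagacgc
Tars (chr15:11399655-11399684, minus strand): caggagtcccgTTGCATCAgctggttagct
Yars (chr4:129189895-129189924, plus strand): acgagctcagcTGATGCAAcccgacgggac

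The 3 members that passed a test in at least one comparison, Gdf15, Slc3a2 and Atf4, held no TGATGNAA in their windows, and the 250 bases before the start are printed for that reason. Gdf15 has 2 starts in RefSeq, neither window holding either motif, and the stretch before the upstream one is shown. They hold no capitals, since neither motif searched was found.
Gdf15 (chr8:70632457-70632706, minus strand): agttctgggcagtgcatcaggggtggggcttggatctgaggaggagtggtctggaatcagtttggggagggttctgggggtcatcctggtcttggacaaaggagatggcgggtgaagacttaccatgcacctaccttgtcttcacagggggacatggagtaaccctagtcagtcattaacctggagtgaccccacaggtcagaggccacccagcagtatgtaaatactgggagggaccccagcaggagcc
Slc3a2 (chr19:8713898-8714147, minus strand): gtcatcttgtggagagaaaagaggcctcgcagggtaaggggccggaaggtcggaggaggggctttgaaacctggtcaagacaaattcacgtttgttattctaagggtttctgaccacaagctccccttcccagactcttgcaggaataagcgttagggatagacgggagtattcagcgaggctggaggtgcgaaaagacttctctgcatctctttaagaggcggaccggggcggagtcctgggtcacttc
Atf4 (chr15:80254934-80255183, plus strand): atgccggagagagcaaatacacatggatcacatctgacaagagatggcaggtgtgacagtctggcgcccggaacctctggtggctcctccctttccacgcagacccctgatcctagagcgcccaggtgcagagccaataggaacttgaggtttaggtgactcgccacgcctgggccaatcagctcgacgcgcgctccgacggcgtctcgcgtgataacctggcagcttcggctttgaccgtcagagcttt

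A second motif, the antioxidant response element core TGACNNNGC on either strand, was in the windows of 9 of 26 members (34.6%), of 14.0% of all genes and of 17.3% of tested genes. Those members were Sesn2, Asns, Phgdh, Psph, Slc7a1, Slc38a2, Aars, Iars and Mars, and no match of one motif shared a base with a match of the other. The 9 tested members with TGATGNAA had a median log2 difference between hydroxyestrogens and controls of 0.07, and the 16 tested members with a window and no match one of 0.10. Letters in a window are a description, and say nothing of what binds there.

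The first comparison set the 3 hydroxyestrogen libraries against the 3 controls. Gdf15 was the one member that passed the test and was 2.41-fold higher with hydroxyestrogens. Atf4, Chac1, Eif4ebp1, Psph, Slc3a2, Eprs and Gars had all 3 hydroxyestrogen libraries above all 3 controls without passing, and Nupr1 had all 3 below. The amino acid enzymes other than Psph, the carriers other than Slc3a2, and the 12 tRNA synthetases had log2 differences of at most 0.20 in size, Asns among them. In all, 1 of 32 tested members passed limma's test at an adjusted p under 0.05, in the higher direction, against 1.88% of all tested genes (1.28% higher and 0.600% lower), a share near the background. At an unadjusted p under 0.05 there were 7 members, 6 higher and 1 lower, against 13.5% of all tested genes, and limma-voom called 2 members, Gdf15 and Slc3a2, against 3.61%. Gdf15, Slc3a2 and Atf4, 3 members, have an adjusted p under 0.05 in the authors' deposited table, against 4.96% of the tested genes in it. The groups did not overlap for 8 members in the higher direction (25.0% of 32; 9.15% of all tested genes) and for 1 in the lower direction (10.8% of all tested genes). The median log2 difference was 0.08 over the 32 members and -0.02 over all tested genes, with 26 members positive and 6 negative. Of all tested genes 5474 were positive and 6517 negative. The members share the same 6 libraries, so these counts are not independent observations.

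**Figure D1:**
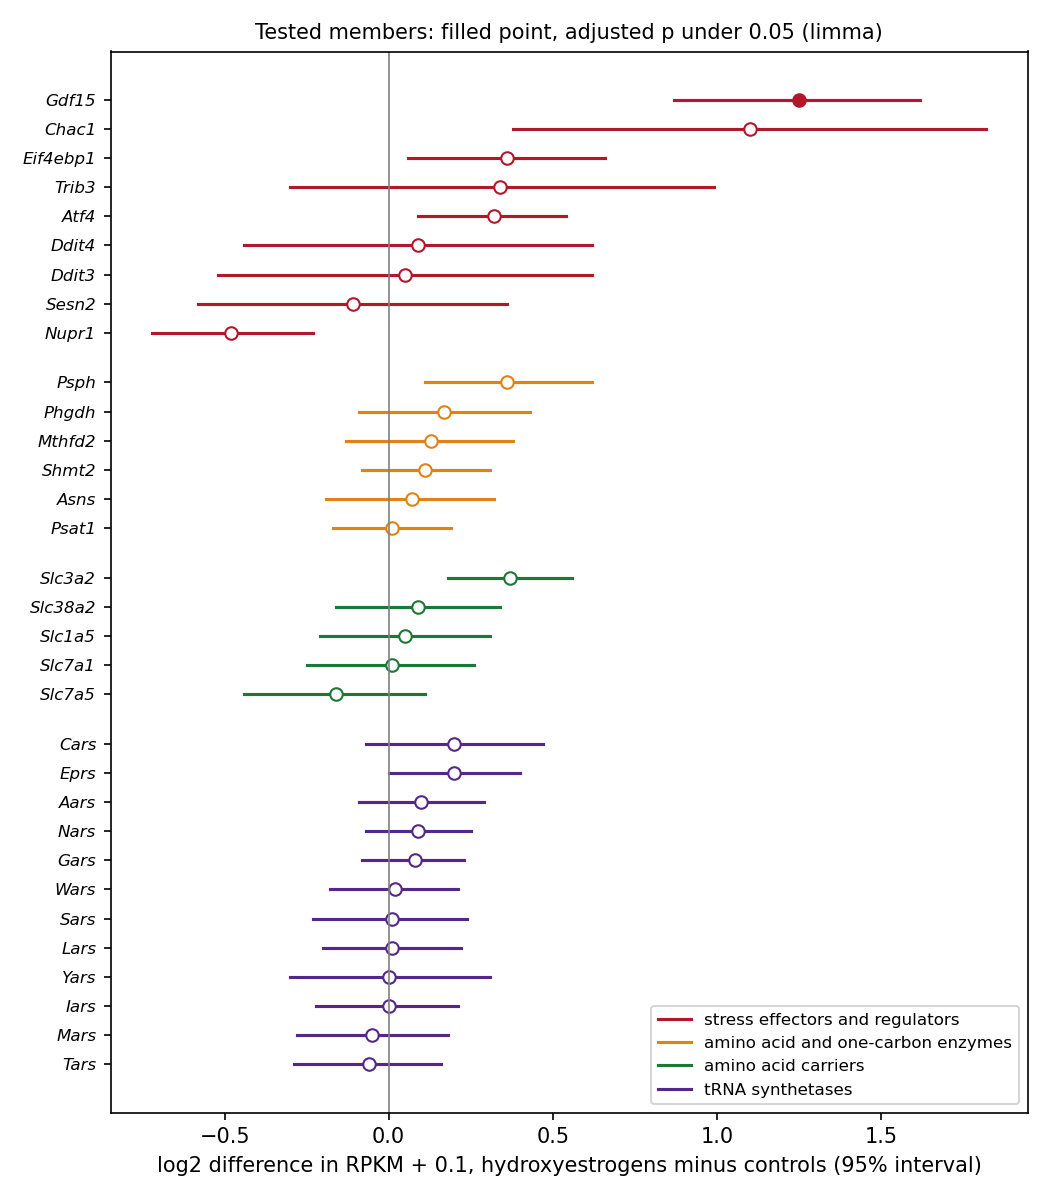
Log2 difference in RPKM between hydroxyestrogens and controls (horizontal axis) for each of the 32 tested members, with its 95% interval from limma, in 4 classes; filled markers passed the test. Gdf15 stands at 1.25 and is the one filled marker, while the tRNA synthetases lie between -0.06 and 0.20.

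Among the stress effectors and regulators, Gdf15, a secreted cytokine of the TGF-beta family induced by cell stress (chr8:73153293-73155534, minus strand, mm9), had 32.2 RPKM with 2OHE2, 51.0 with 4OHE1 and 43.6 with 2OHE1, against 14.9 with EtOH, 18.4 with E2 and 19.5 with 16Epi. Every hydroxyestrogen library was above every control, and behind these values stood 657 to 1089 reads with hydroxyestrogens and 293 to 350 in controls. The means were 42.3 ± 9.48 RPKM with hydroxyestrogens and 17.6 ± 2.39 in controls (SD, n = 3 each), and the log2 difference was 1.25 ± 0.17 (SE), with a 95% interval of 0.87 to 1.62 and an adjusted p of 0.00683 by limma. Without the 4OHE1 library it was 1.10, with an adjusted p of 0.0199. In the authors' deposited table, whose log2 ratio is positive where controls are higher, Gdf15 has -1.32 with an adjusted p of 2.48e-09.

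Atf4 itself, the transcription factor of the program, whose activity is set mainly by translation, had 129 RPKM with 2OHE2, 156 with 4OHE1 and 120 with 2OHE1, against 103 with EtOH, 115 with E2 and 105 with 16Epi. The groups did not overlap, and the gap between the lowest hydroxyestrogen library and the highest control was small beside the distance of 4OHE1 from the other hydroxyestrogens. The log2 difference was 0.32 ± 0.10 (SE; 95% interval 0.09 to 0.54; adjusted p = 0.192), and 0.21 without the 4OHE1 library. The authors' deposited table gives Atf4 -0.39 with an adjusted p of 0.0141, again on a scale where positive means higher in controls.

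Chac1, an enzyme that degrades glutathione and is strongly induced by ATF4 with CHOP, was scarce, at 1.90 RPKM with 2OHE2, 3.24 with 4OHE1 and 1.87 with 2OHE1, against 1.37 with EtOH, 0.862 with E2 and 0.844 with 16Epi. These rest on 56, 100 and 54 reads in the hydroxyestrogen libraries and on 39, 23 and 22 in the controls, and the groups did not overlap. The log2 difference was 1.10 ± 0.32 (SE; 95% interval 0.38 to 1.82; adjusted p = 0.164), the second largest among members and not past the threshold.

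Nupr1, a small chromatin-associated stress protein, had the opposite order, with 21.2 RPKM for 2OHE2, 26.8 for 4OHE1 and 24.6 for 2OHE1, against 35.8 for EtOH, 31.4 for E2 and 33.4 for 16Epi. All 3 hydroxyestrogen libraries were below all 3 controls, with a log2 difference of -0.48 ± 0.11 (SE; 95% interval -0.72 to -0.23; adjusted p = 0.0673). Eif4ebp1, an inhibitor of cap-dependent translation, had 54.8, 72.0 and 54.3 RPKM with 2OHE2, 4OHE1 and 2OHE1, against 46.3, 53.6 and 40.7 with EtOH, E2 and 16Epi. Its groups were separated only narrowly, by the E2 library, and the adjusted p was 0.272 for a log2 difference of 0.36.

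The remaining stress genes overlapped between the groups. Trib3, a pseudokinase that feeds back on ATF4, had 2.56, 2.82 and 1.56 RPKM with 2OHE2, 4OHE1 and 2OHE1, against 1.53, 2.12 and 1.64 with EtOH, E2 and 16Epi (log2 difference 0.34 ± 0.29 SE, adjusted p = 0.657, and 0.19 without 4OHE1). The 2OHE2 and 4OHE1 libraries were above the controls and the 2OHE1 library lay among them. Ddit3, which encodes the pro-apoptotic factor CHOP, had 6.02, 4.77 and 3.84 RPKM with 2OHE2, 4OHE1 and 2OHE1, against 5.10, 3.30 and 5.87 with EtOH, E2 and 16Epi. Its log2 difference of 0.05 had a 95% interval of -0.52 to 0.62 and an adjusted p of 0.960. Ddit3 (chr10:126727849-126733344, mm9) overlaps Mars (chr10:126733277-126748842) on the opposite strand, only where the ends of the genes meet. With no strand setting given in the sources used here, reads in that stretch cannot be told apart. Ddit4, an inhibitor of mTORC1, and Sesn2, a sestrin that also restrains mTORC1, had log2 differences of 0.09 and -0.11.

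**Figure D2:**
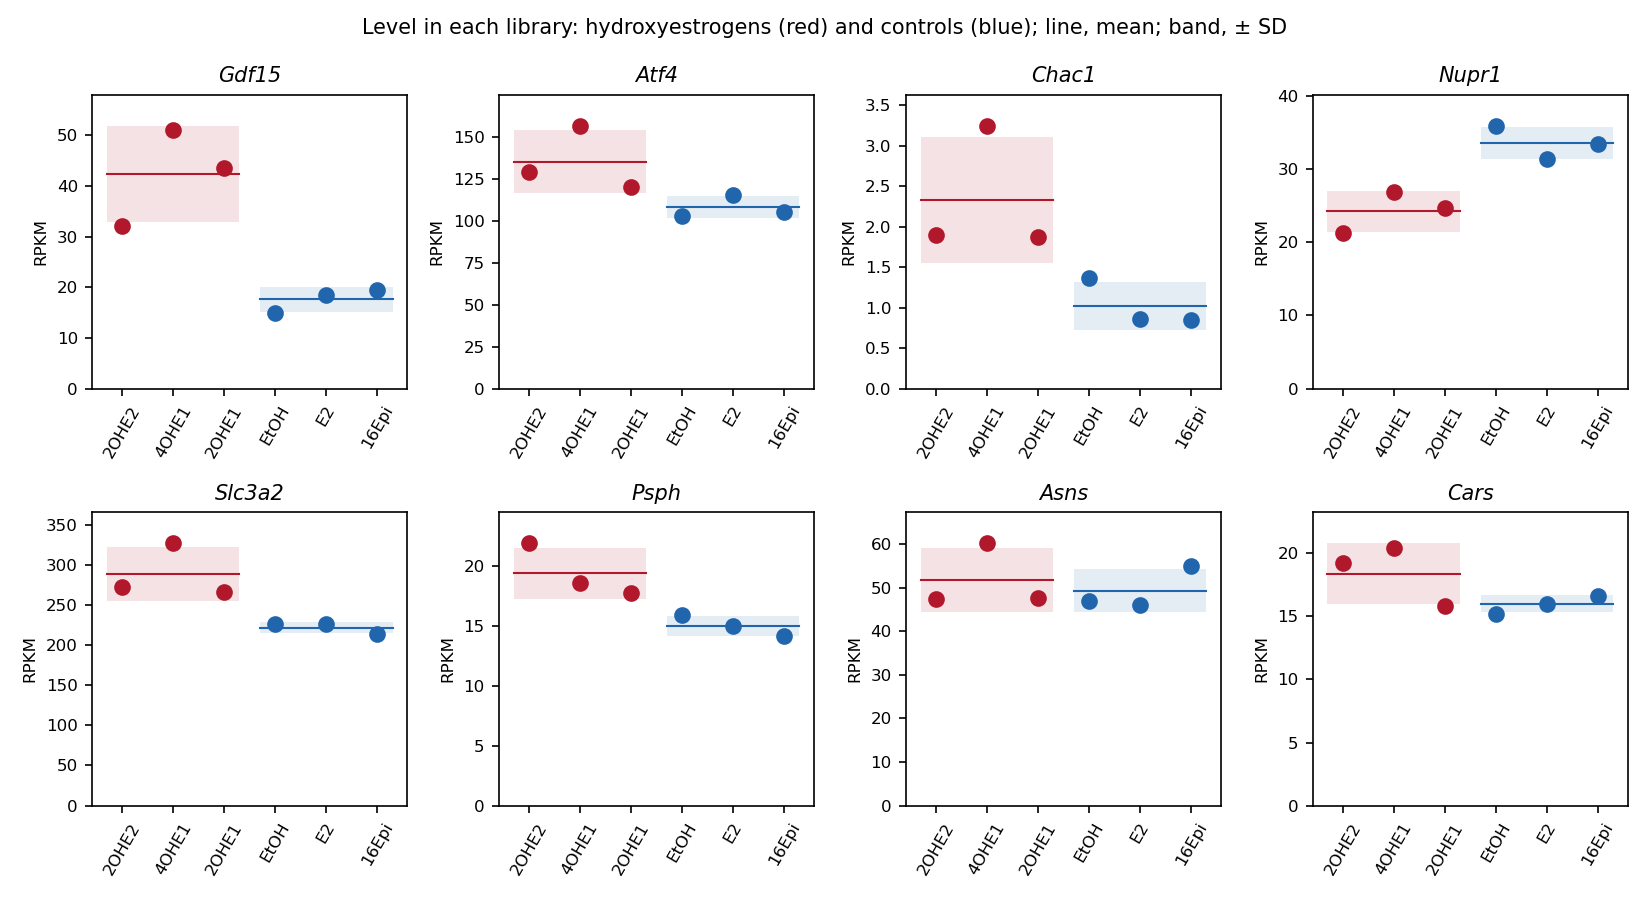
RPKM (vertical axis, from 0, a scale of its own for each gene) of named members in each library, hydroxyestrogens at the left and controls at the right, with the group mean and SD. For Gdf15 the hydroxyestrogen libraries lie at 32.2 to 51.0 and the controls at 14.9 to 19.5, whereas for Asns the groups overlap.

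The 6 enzymes of amino acid and one-carbon synthesis all had positive log2 differences, of 0.01 to 0.36, and none passed the test. Asns, asparagine synthetase and a classical ATF4 target, had 47.3 RPKM with 2OHE2, 60.1 with 4OHE1 and 47.7 with 2OHE1, against 46.9 with EtOH, 46.0 with E2 and 54.9 with 16Epi. Only the 4OHE1 library was above all controls, and the log2 difference was 0.07 ± 0.11 (SE; 95% interval -0.19 to 0.32; adjusted p = 0.858). Without the 4OHE1 library it turned to -0.05.

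Psph, the phosphatase of the last step of serine synthesis, had 21.9 RPKM with 2OHE2, 18.6 with 4OHE1 and 17.8 with 2OHE1, against 15.9 with EtOH, 15.0 with E2 and 14.2 with 16Epi. Every hydroxyestrogen library was above every control, and here 2OHE2 and not 4OHE1 was the highest (log2 difference 0.36 ± 0.11 SE, adjusted p = 0.192). Phgdh, the first enzyme of serine synthesis, had 24.7, 24.5 and 19.7 RPKM with 2OHE2, 4OHE1 and 2OHE1, against 21.3, 20.8 and 18.9 with EtOH, E2 and 16Epi. Shmt2, the mitochondrial enzyme that takes one-carbon units from serine, had 58.3, 58.5 and 49.4 RPKM with 2OHE2, 4OHE1 and 2OHE1, against 50.2, 52.0 and 50.8 with EtOH, E2 and 16Epi. In both genes the 2OHE1 library fell within or below the controls while the other hydroxyestrogens were above them, and the adjusted p values were 0.576 and 0.620. The log2 differences were 0.17 for Phgdh and 0.11 for Shmt2, and 0.12 and 0.07 without 4OHE1. Mthfd2, the next mitochondrial one-carbon enzyme, and Psat1, the transaminase between Phgdh and Psph, had log2 differences of 0.13 and 0.01.

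Among the 5 carriers, Slc3a2 (CD98 heavy chain, the shared subunit of heteromeric amino acid exchangers) had 273 RPKM with 2OHE2, 327 with 4OHE1 and 266 with 2OHE1, against 227 with EtOH, 226 with E2 and 214 with 16Epi. It was the most abundant of all 33 members, and its lowest hydroxyestrogen library stood well above its highest control. The log2 difference was 0.37 ± 0.08 (SE; 95% interval 0.18 to 0.56) with an adjusted p of 0.0646, and the authors' deposited table gives it -0.40 (positive where controls are higher) with an adjusted p of 4.04e-04. Slc7a5, the leucine-carrying partner LAT1 of Slc3a2, had 22.3, 17.3 and 21.6 RPKM with 2OHE2, 4OHE1 and 2OHE1, against 21.9, 21.4 and 25.0 with EtOH, E2 and 16Epi. The 4OHE1 library was the lowest of the 6 for Slc7a5, although it was the highest for Slc3a2, and the log2 difference was -0.16 (adjusted p = 0.617), and -0.05 without 4OHE1. Slc7a11, the cystine-carrying partner of Slc3a2 and not a member, was looked up after its values were seen, and had 134, 137 and 154 RPKM with 2OHE2, 4OHE1 and 2OHE1, against 129, 123 and 130 with EtOH, E2 and 16Epi (log2 difference 0.15, adjusted p = 0.432). Slc38a2, a sodium-coupled carrier of neutral amino acids, had 31.7, 26.5 and 29.8 RPKM with 2OHE2, 4OHE1 and 2OHE1, against 25.3, 26.3 and 31.2 with EtOH, E2 and 16Epi. Its groups overlapped (log2 difference 0.09, adjusted p = 0.795, and 0.16 without 4OHE1), as did those of the cationic carrier Slc7a1 and the glutamine carrier Slc1a5, at 0.01 and 0.05.

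The 12 tRNA synthetases, which charge tRNAs with amino acids in the cytosol, had log2 differences of -0.06 to 0.20 with a median of 0.01, against -0.02 over all tested genes. None passed the test. Cars had 19.2, 20.4 and 15.8 RPKM with 2OHE2, 4OHE1 and 2OHE1, against 15.2, 16.03 and 16.6 with EtOH, E2 and 16Epi, with the 2OHE1 library among the controls (log2 difference 0.20, adjusted p = 0.521, and 0.12 without 4OHE1). Eprs, which joins glutamyl and prolyl charging in one protein, had 32.6, 28.7 and 31.9 RPKM with 2OHE2, 4OHE1 and 2OHE1, against 26.8, 26.0 and 28.2 with EtOH, E2 and 16Epi. Its groups did not overlap, and its log2 difference was 0.20 ± 0.09 (SE) with an adjusted p of 0.375. Nars had 70.8, 76.1 and 77.0 RPKM with 2OHE2, 4OHE1 and 2OHE1, against 71.8, 71.5 and 67.2 with EtOH, E2 and 16Epi (log2 difference 0.09, adjusted p = 0.642). Gars was separated by a narrow gap, at 56.0 to 58.5 RPKM with hydroxyestrogens and 54.2 to 54.6 in controls. The other 8, Aars, Iars, Lars, Mars, Sars, Tars, Wars and Yars, overlapped between the groups, with log2 differences of -0.06 to 0.10. Yars overlaps C77080 and Mars overlaps Ddit3 on the opposite strand.

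The class medians of the log2 difference were 0.32 for the stress genes, 0.12 for the enzymes, 0.05 for the carriers and 0.01 for the tRNA synthetases. Without the 4OHE1 library they were 0.19, 0.04, 0.11 and -0.03 in the same order of classes. The carrier median was -0.00 without 2OHE2 and -0.01 without EtOH. Scaling by median ratios moved the median of all tested genes by 0.0185 and left the 4 class medians positive, at 0.34, 0.14, 0.07 and 0.03. Levels per transcript length ran over a wide range. Slc3a2 averaged 255 RPKM over the 6 libraries and Atf4 121, followed by Nars at 72.4 and Gars at 56.0, whereas Chac1 averaged 1.68 and Vldlr 0.0288.

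The second comparison set each hydroxyestrogen against the 3 controls, which the 3 contrasts share. A lone library is assumed here to vary like the controls. The hydroxyestrogen libraries scattered more than that, as given above. For genes with intermediate read counts, squared deviations of each library from the mean of the others in its group were set against Poisson variance. The median ratio was 5.25 for 4OHE1, 4.35 for 2OHE2, 4.27 for 2OHE1 and 2.34 to 2.43 for the controls. The p-values of these contrasts may therefore be too small. With 4OHE1, Gdf15, Slc3a2 and Atf4 passed the test and rose by 1.54, 0.56 and 0.54 on the log2 scale, with adjusted p of 0.0103, 0.0173 and 0.0314. These are 3 of 32 members, against 3.69% of all tested genes. With 2OHE1, Gdf15 rose by 1.32 (adjusted p = 0.0303) and was the one member called, against 0.542% of tested genes. With 2OHE2 no member passed limma's test, against 0.609% of tested genes, while 7 had an unadjusted p under 0.05, against 13.8% of tested genes. Gdf15 had a log2 difference of 0.88 with 2OHE2 and an adjusted p of 0.0801. Without the E2 library none of the 4 calls held, and the adjusted p of Gdf15 was 0.0575 with 4OHE1 and 0.163 with 2OHE1. Under the same omission Slc3a2 and Atf4 had 0.0825 and 0.0778 with 4OHE1, and without 16Epi the value for Atf4 was 0.0734.

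Some other settings called more members and more genes. With no filter on low reads, and with no variance trend, none of the calls above for single compounds held. Limma-voom called 2 members with 2OHE2, 7 with 4OHE1 and 2 with 2OHE1, against 3.86%, 13.7% and 3.12% of tested genes. Of the 7 with 4OHE1, 6 were higher and Slc7a5 was lower (log2 difference -0.40, adjusted p = 0.0430). On the authors' log2 values from the authors' deposited table, limma called 2, 9 and 2 members with the same compounds, against 4.84%, 14.4% and 4.62% of genes, and the 9 with 4OHE1 included Aars, Cars and Asns. With the test kept to genes averaging 100 reads or more it called 2, 5 and 1 of 28 members, against 2.47%, 9.77% and 1.72% of genes. Nupr1 was among the 2 with 2OHE2 and was lower (log2 difference -0.66, adjusted p = 0.0290). The other calls under these settings were higher.

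Chac1 with 4OHE1 had a log2 difference of 1.60 with an adjusted p of 0.0740, Mthfd2 one of 0.38 with 0.0701 and Eif4ebp1 one of 0.63 with 0.0751. Mthfd2 had 50.5, 62.1 and 45.2 RPKM with 2OHE2, 4OHE1 and 2OHE1, against 47.0, 49.3 and 46.9 with EtOH, E2 and 16Epi, so that only 4OHE1 was far from the controls. Under median-ratio scaling Mthfd2 with 4OHE1 passed, at an adjusted p of 0.0485.

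The whole gene set was placed differently by compound. With 4OHE1, 24 of 32 members lay above all 3 controls and 2 below, against 27.6% and 40.9% of all tested genes. With 2OHE2 these were 19 above and 6 below, against 35.0% and 27.0% of tested genes, and with 2OHE1 10 above and 9 below, against 27.1% and 33.7%. For the tRNA synthetases, 10 of 12 were above all controls with 4OHE1, and 4 were above and 4 below with 2OHE2 and with 2OHE1 alike. The median log2 difference of the synthetases was 0.01 with 2OHE2, 0.10 with 4OHE1 and -0.04 with 2OHE1, and that of all tested genes 0.04, -0.06 and -0.02 for the same compounds. All 12 synthetases had positive values with 4OHE1, against 5173 of 11991 tested genes. Under median-ratio scaling all 12 were positive too, with a median of 0.16, against 6036 of 11991 tested genes. These values share 1 library, so they are not independent observations. Cytosolic synthetases outside the members were mixed with 4OHE1. Hars and Rars lay below all 3 controls, Dars, Qars and Vars among them, and Kars, Farsa and Farsb above. The synthetase median with 2OHE2 was -0.02 under that scaling, and the carrier median with 4OHE1 was 0.01, against -0.05 without it. Among the hydroxyestrogen libraries, 4OHE1 was the highest for 22 of 32 members, 2OHE2 for 9 and 2OHE1 for 1, against 27.8%, 42.2% and 30.0% of all tested genes. 4OHE1 was also the library farthest from the rest over all genes, and the part of that distance in these counts was not tested.

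**Figure D3:**
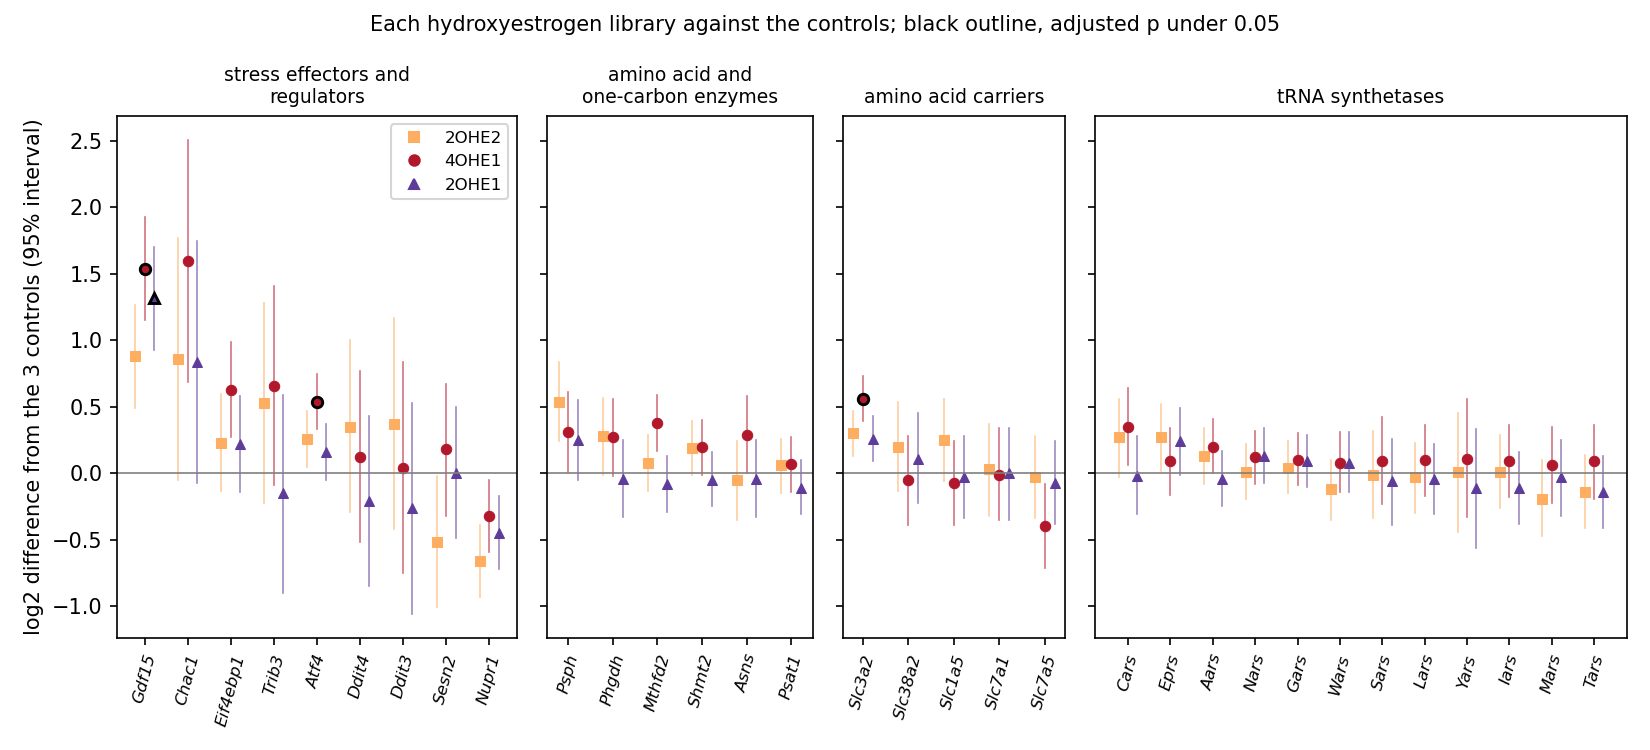
Log2 difference of each hydroxyestrogen library from the mean of the 3 controls (vertical axis, with 95% intervals from limma) for the 32 tested members, in 4 classes (horizontal axis), with 1 point per compound and a black outline where the test was passed. The 4OHE1 points lie above 0 for 27 members, including all 12 tRNA synthetases.

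The 3 hydroxyestrogens were also compared pairwise, at the same dose and time. 2OHE2 and 2OHE1 differ in a hydroxyl against a ketone on the D ring, 4OHE1 and 2OHE1 in the position of the added hydroxyl on the A ring, and 2OHE2 and 4OHE1 in both. With p-values adjusted over all genes and the 3 pairs together, 0 of 32 members passed in any pair. Within single pairs 0.0417%, 0.0417% and 0.0751% of tested genes passed (2OHE2 against 2OHE1, 4OHE1 against 2OHE1, and 2OHE2 against 4OHE1). Members with an unadjusted p under 0.05 numbered 0, 4 and 6 of 32 in those pairs, against 10.6%, 15.0% and 15.8% of tested genes. The 4 were all higher with 4OHE1 than with 2OHE1, where 758 tested genes were higher and 1043 lower. The 6 were all lower with 2OHE2 than with 4OHE1, where 1304 tested genes were higher and 588 lower. The members share these libraries, so such counts are not independent observations. Adjusted within a pair, limma-voom called 1 member, Slc3a2, for 4OHE1 against 2OHE1 (2.24% of tested genes). On the authors' log2 values from the authors' deposited table, limma called Slc3a2, Atf4 and Mthfd2 for 4OHE1 against 2OHE1 (adjusted p = 0.0227, 0.0120 and 0.0234; 3.13% of genes). On the same values it called Slc3a2, Gdf15 and Atf4 for 2OHE2 against 4OHE1 (adjusted p = 0.0142, 0.00702 and 0.0324; 3.62% of genes).

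The intervals of these differences were wide, and may still be too narrow. Their spread came from the controls alone, which scattered less than the hydroxyestrogen libraries compared. The p-values for pairs may likewise be too small. For Gdf15 the log2 difference was -0.44 for 2OHE2 against 2OHE1 (95% interval -0.91 to 0.04, adjusted p = 0.392) and 0.23 for 4OHE1 against 2OHE1 (-0.25 to 0.70, adjusted p = 0.648). For 2OHE2 against 4OHE1 it was -0.66 (-1.14 to -0.19, adjusted p = 0.271). Slc3a2 with 4OHE1 differed from 2OHE1 by 0.30 (0.09 to 0.50, adjusted p = 0.269), whereas 2OHE2 and 2OHE1 differed by 0.04 (-0.17 to 0.24). Atf4 with 4OHE1 differed from 2OHE1 by 0.38 (0.12 to 0.64, adjusted p = 0.262), and 2OHE2 and 2OHE1 differed by 0.10 (-0.16 to 0.36). Mthfd2 with 4OHE1 was 0.46 from 2OHE1 (0.20 to 0.72, adjusted p = 0.227). A p that misses the threshold does not show that the compounds act alike on these genes.

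Within the controls, E2 against EtOH, 16Epi against EtOH and E2 against 16Epi, 0 of 32 members passed, at an adjusted or an unadjusted p under 0.05 and under limma-voom. Of all tested genes 0.00834%, 0.0167% and 0.0167% passed, and 1.35%, 1.51% and 1.37% had an unadjusted p under 0.05. Each contrast sets 1 library against 1, with the spread taken from the 3 different hydroxyestrogens, so it had little power, and the 0 does not show that the controls act alike. For Gdf15, E2 differed from EtOH by 0.30 on the log2 scale (95% interval -0.42 to 1.03), and 16Epi from EtOH by 0.38 (-0.34 to 1.11).

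Related gene lists of the pathway, 7 in all, gave 2 further calls. Their share was near the 1.88% of all tested genes that passed in the same comparison. Ppp1r15a, the stress-induced subunit that directs a phosphatase to eIF2 and so ends the response, had 58.0, 64.6 and 69.1 RPKM with 2OHE2, 4OHE1 and 2OHE1, against 49.7, 46.4 and 47.3 with EtOH, E2 and 16Epi. Its groups did not overlap (log2 difference 0.41 ± 0.09 SE, adjusted p = 0.0454), and it was 1 of 17 tested genes of the eIF2 kinases, phosphatase subunits and exchange factor, whose median was 0.01. The call held without 2OHE2, and the adjusted p was 0.105 without 4OHE1, 0.114 without 2OHE1, and 0.117, 0.186 and 0.203 without EtOH, E2 and 16Epi. It also missed the threshold under median-ratio scaling (0.0674), a pseudocount of 0.01 (0.0518), no filter on low reads (0.0907) and no variance trend (0.238). Slc6a9, a glycine carrier, had 7.41, 8.58 and 5.50 RPKM with 2OHE2, 4OHE1 and 2OHE1, against 3.66, 2.70 and 2.65 with EtOH, E2 and 16Epi. It was 1 of 20 tested genes of other ATF4-linked metabolism (log2 difference 1.22 ± 0.22 SE, adjusted p = 0.0255; list median -0.00). Its adjusted p was 0.0746 without 2OHE2, 0.0800 without 4OHE1, 0.109 without E2 and 0.132 without 16Epi.

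No gene passed in the other lists. The 7 tested ATF4 partners and related bZIP factors had a median of 0.07, with Atf5 at 0.23 (adjusted p = 0.304). The 11 other cytosolic synthetases and scaffold genes had a median of -0.09, with 1 positive and 10 negative, and Eef1e1, a scaffold protein, at -0.24 (adjusted p = 0.337). The 16 mitochondrial synthetases had a median of 0.12, with Ears2 at 0.36 (adjusted p = 0.498). The 15 genes of endoplasmic reticulum chaperones had 0.06, with Creld2 at 0.29 (adjusted p = 0.272). The 16 genes of mTORC1 and amino acid sensing had -0.04, with the cap-binding factor Eif4e at -0.31 (adjusted p = 0.252). Stc2, Fgf21 and Adm2, known ATF4-linked secreted proteins, were listed at 0 in every library.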

How the data were processed

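Per the labels' protocols, mRNA libraries of 6 macrophage cultures were sequenced. Per the submitters' processing notes, the authors used STAR, HOMER, edgeR and DESeq2 (no versions) and build mm9. The deposited RPKM values were made with HOMER over exons, 1 entry per gene, per the file headers. A second deposited table holds the authors' log2 values, log2 ratio, p-value and adjusted p-value. No strand setting is stated in the labels or headers.

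Reads were recovered from RPKM (of 1873 to 2607 low values per library, below 20 reads in transcripts shorter than 6000 nt, 100% came within 0.1 of an integer). Genes with 10 reads in 3 libraries were tested with limma 3.58.1 (R 4.3.3) on log2(RPKM + 0.1), with a variance trend, two-sided, with Benjamini-Hochberg adjustment over 11991 genes and a threshold of 0.05. Log2 differences understate the change of low genes. The fit had 4 residual degrees of freedom, and that with 1 coefficient per compound had 2. An exact permutation test of 3 against 3 cannot go below 0.1. The p-values for pairs were adjusted over all genes and the 3 pairs. Tables and figures were made with Python 3.11.15, pandas 2.3.3 and matplotlib 3.10.9, and the fits were tested on simulated data. In 10 simulations the group comparison recovered 92% of 2-fold changes, and that of 4OHE1 alone 77.2%. False calls made up 6.87% and 6.46% of the calls. Every simulated library had the same scatter, unlike the libraries here.

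Values of every library are given for members past the threshold, for 5 members (Atf4, Ddit3, Asns, Chac1, Trib3), and for the 3 smallest p of each class; Eif4ebp1, Mthfd2 and Gars were added after their values were seen. Of each other list, the called genes or the smallest p are named. The members and lists were chosen with earlier results of these data known. Alternatives were other pseudocounts, filters, limma-voom, median-ratio scaling, no variance trend, the authors' log2 values, a replicate block and leaving out each library. Some promoter sequence is not reported here.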

Additional observations from a re-analysis of the deposited data

How the results depend on the processing

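Of 370 values of 23 named genes under alternative settings, 336 kept their direction and side of the threshold, 26 lost a call, 5 gained one and 3 changed sign. Most of the values were of genes with no call in the main setting, which had none to lose. The sign changes were Ddit3, at -0.11 without 2OHE2 and -0.19 without E2 (-0.19 to 0.22 over the 6 omissions), and Asns, at -0.05 without 4OHE1 (-0.05 to 0.15), and their cause was not tested. Gdf15 in the main comparison was called in 14 of 15 settings, and lost with no variance trend (adjusted p = 0.117). Over all genes 225 were called, against 94 with no filter, 350 with a mean of at least 100 reads, 433 by limma-voom, 12 with no variance trend and 483 on the authors' log2 values. Leaving out each library gave 64 to 191, with 125 without EtOH, 83 without E2 and 64 without 16Epi. Members called numbered 1, against 3 with a mean of at least 100 reads, 2 by limma-voom, 0 with no variance trend and 3 on the authors' log2 values, and 1 without each library. Of the 3 with a mean of at least 100 reads, 2 were higher and Nupr1 was lower (log2 difference -0.48, adjusted p = 0.0294). Members called by compound were 0 with 2OHE2 (2 by limma-voom, 0 to 1 without a control), 3 with 4OHE1 (7 by limma-voom, 0 with no variance trend, 0 to 4 without a control) and 1 with 2OHE1 (2 by limma-voom, 0 with no variance trend, 0 to 1 without a control). Counts by compound on the authors' log2 values and with a mean of at least 100 reads stand in the results. For 4OHE1 against 2OHE1 limma-voom called 1. With the replicate number as a block, 165 genes and 1 member were called, and it changed no call of a member, while Ppp1r15a had an adjusted p of 0.0859. Deviations of same-numbered libraries correlated at -0.0356, 0.0661 and 0.0445, and those of the other pairs at -0.0788 to 0.0419. Each library had its own compound, so these values cannot show whether same-numbered libraries share an animal, marrow preparation or batch. Chac1, Trib3 and Ddit3 rest on 22 to 114 reads per library, which limits their precision.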
